A study of Mus musculus with 24 samples.

Results

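The 10 genes described here were Trp53, which encodes the mouse p53 protein, its inhibitors Mdm2 and Mdm4, and 7 target genes (Cdkn1a, Bax, Bbc3, Pmaip1, Ccng1, Zmat3 and Sesn2). They were chosen by name, as the rows whose gene symbol equals one of these names, out of 21833 protein-coding genes in the deposited table. Each name matched 1 row. Of the 10 genes, 9 passed the filter for the test across all genes (at least 1 FPKM in at least 3 libraries), as did 10171 genes in all. Pmaip1 did not pass and was compared on its own.

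p53 is a transcription factor that is held at a low level by Mdm2, a ubiquitin ligase that marks it for degradation, and by Mdm4, a relative of Mdm2 that binds and blocks it. DNA damage or oncogene activity releases p53, which then switches on genes for cell cycle arrest, cell death and repair, among them Mdm2 itself. In neuroblastoma, a childhood tumor of the sympatho-adrenal lineage, MDM2 is a known target gene of MYCN.

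Poly(A)-selected, strand-specific RNA-seq was made from adrenal glands and neuroblastoma tumors of mice on a C57Bl6/N background, in 24 libraries. The 3 AG libraries came from glands of mice labelled CRE -. The 5 AGM libraries came from tumor-free glands of CRE + mice with the MYCN transgene (+/-). The 8 TI libraries came from tumors of CRE + mice with the IGF2BP1 transgene, which was +/- in 1 and +/+ in 7. The 8 TIM libraries came from tumors of CRE + mice labelled as carrying both IMP1 (IGF2BP1) and MYCN. Both transgenes sat in the Rosa26 locus behind a stop cassette, IGF2BP1 without its 3′UTR and with a fluorescent reporter, MYCN with luciferase. A Cre recombinase under the Dbh promoter removed the cassette in sympatho-adrenal cells, so the other cells of a gland were not meant to carry an active transgene. In the study's genotyping TIM mice had no wild-type Rosa26 allele, that is, 1 allele of each transgene, so TIM also had fewer IGF2BP1 alleles than the +/+ mice of TI. Tumor mice were killed when termination criteria were reached and MYCN mice at a fixed age, so age differed between groups and cannot be told apart from them. Tumor site differed too. In the study most IGF2BP1 tumors lay in the abdomen, while mice with both transgenes often had tumors of the adrenal gland or along the spine. The study saw no striking difference by site in its principal component analysis. No column could be tied to a site, so its part in TIM vs TI was not tested.

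The unit is FPKM, fragments divided by the length of the gene and by a scaled library size, which allows for gene length. The authors had corrected the counts for a batch effect before computing them. Whole reads could be recovered from the FPKM, and outside the 126 genes above 1000 FPKM, none of which belonged to the 10 genes, a library held 12334076 to 23683176 recovered reads, which are batch-corrected values. With those 126 genes the totals were 12468968 to 21353172 over AG and TI, but 116740738 to 1170004708 over AGM and 58530450 to 888626365 over TIM. What these totals did to the authors' library sizes could not be checked. FPKM recomputed without the 126 genes are given where they change a call of the 10 genes. AG was sequenced in run 1 and AGM in run 2. TI came from run 1 (6 samples), run 2 (1) and run 3 (1), and TIM from run 2 (3) and run 3 (5). The columns of the table could not be tied to a run, so no value within a run could be given. Run and group cannot be told apart where AGM or TIM is set against AG, since they share no run with it. AG and 6 of the 8 TI samples share run 1, so where all 8 TI libraries lay beyond all AG libraries, those of run 1 did too. Markers checked the tissues. The summed FPKM of 6 adrenal cortex genes spanned 642 to 662 over the AG libraries, 3580 to 4794 over AGM, 0.0173 to 9.96 over TI and 0.281 to 9.28 over TIM. That of 7 sympatho-adrenal genes spanned 88.0 to 127 over AG, 896 to 1693 over AGM, 182 to 1574 over TI and 197 to 3845 over TIM. In bulk tissue a smaller number of cells of a type and less RNA per cell cannot be told apart. One TI library, number 4 in column order, had 77.9 FPKM over 5 fibroblast genes against at most 31.0 in the other 7.

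Trp53 (GRCm39, chr11:69469669-69482701, + strand) was measured at a moderate level in all groups. It was 5.55, 5.79 and 5.25 FPKM in the AG libraries and 3.55, 3.02, 3.0, 3.20 and 3.23 FPKM in AGM. In TI it ranged from 3.21 to 9.62 FPKM with a median of 6.08, and in TIM from 1.62 to 5.80 FPKM with a median of 3.26. All 5 AGM libraries were below all AG libraries, while 4 of 8 TIM libraries were below every TI library. In order of their means the groups were TI (6.27 ± 1.95 FPKM, SD, n = 8), AG (5.53 ± 0.272, n = 3), TIM (3.65 ± 1.57, n = 8) and AGM (3.20 ± 0.220, n = 5). The neighbours TI and AG did not differ beyond their spread, with a log2 difference of 0.11 (95% interval -0.41 to 0.63; limma FDR 0.771), nor did TIM and AGM (0.08, interval -0.36 to 0.51; FDR 0.766). AGM was lower than AG in all 5 libraries, by a log2 difference of -0.64 that did not pass (limma FDR 0.0807), and passed with recomputed FPKM (FDR 0.0077). For TIM vs AG the difference was -0.56 (limma FDR 0.0655), and it passed without the TIM library 3, 6 or 7 (FDR 0.0337, 0.0282 and 0.0483). These had the highest Trp53 of the TIM libraries, so leaving out any of them widened the difference.

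**Figure D1:**
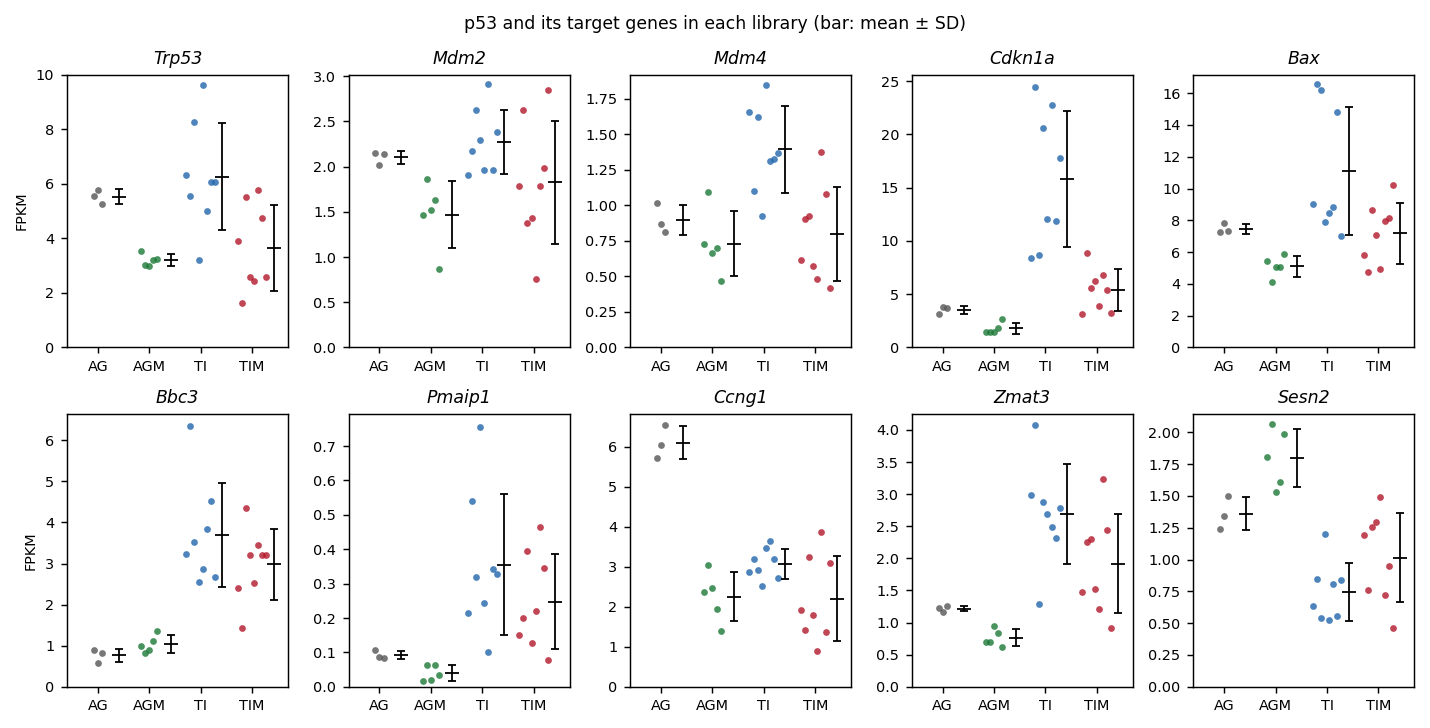
FPKM (linear axis from 0) of the 10 genes in each library of AG (n = 3), AGM (n = 5), TI (n = 8) and TIM (n = 8), with the mean and SD of each group as a black bar. Cdkn1a and Bbc3 lie above all AG libraries in every TI library, Ccng1 lies below them in every AGM, TI and TIM library, and Trp53 spans 1.62 to 5.80 FPKM in TIM.

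Between the tumor groups Trp53 was lower in TIM, by a log2 difference of -0.67 (SE 0.19; limma FDR 0.0125). When only the TI and TIM libraries set the spread, the same difference had an FDR of 0.0529. Trp53 shares its locus with Wrap53, a gene on the opposite strand that encodes a telomerase and Cajal body factor. Wrap53 had 3.15 ± 0.842 FPKM in TI and 1.70 ± 0.521 in TIM (log2 difference -0.62, limma FDR 0.0012), and it was higher in TI than in AG (0.56, FDR 0.0063). Whether the counting used strand is not given in the sources used here, so reads of the 2 genes may not be separated where they overlap. The 79 tested genes within 2 Mb of Trp53 had a median difference of -0.19 between TIM and TI, and the 926 tested genes of chromosome 11 had a median of -0.17, against 0.00 over all tested genes. The 2 relatives of Trp53 were close to absent. Trp63 averaged at most 0.0176 FPKM and Trp73 at most 0.00338 FPKM in any group, both below the filter, and no comparison of either had an adjusted p under the threshold (lowest adjusted p 0.0606, exact permutation test).

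The inhibitors were measured at lower levels than Trp53 in every group mean. Mdm2 had 2.15, 2.01 and 2.14 FPKM in AG and 1.46, 1.86, 1.52, 1.63 and 0.867 FPKM in AGM. It ranged from 1.91 to 2.91 FPKM in TI (median 2.24) and from 0.759 to 2.85 FPKM in TIM (median 1.79). All AGM libraries were below all AG libraries, and the tumor groups overlapped with AG and with each other. None of the 5 comparisons passed for Mdm2 with the deposited FPKM over all 24 libraries. AGM differed from AG by -0.34 (limma FDR 0.167), which passed with recomputed FPKM (-0.92, FDR 0.0218). There the median of all tested genes was -0.41. It also passed by limma-voom (FDR 0.0228) and with the AGM and AG libraries alone (FDR 0.0472). The log2 difference was 0.07 in TI vs AG (95% interval -0.28 to 0.42), -0.17 in TIM vs AG (-0.52 to 0.18) and -0.24 in TIM vs TI (-0.50 to 0.01).

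Mdm4 had 1.02, 0.866 and 0.810 FPKM in AG and 0.727, 1.09, 0.668, 0.702 and 0.465 FPKM in AGM. It ranged from 0.924 to 1.85 FPKM in TI (median 1.35) and from 0.419 to 1.38 FPKM in TIM (median 0.759). Of the 8 TI libraries, 7 were above all AG libraries, and 5 of 8 TIM libraries were below all TI libraries. Mdm4 was lower in TIM than in TI (log2 difference -0.43, SE 0.10; limma FDR 0.0063). Against AG, TI differed by 0.33 (limma FDR 0.0563), which did not pass. It passed without the TI library 2 (FDR 0.0465) or 4 (FDR 0.0290), the TI libraries with the lowest Mdm4, so leaving out either widened the difference. It also passed with the TI and AG libraries alone (FDR 0.0341), but not with recomputed FPKM (FDR 0.118) or by limma-voom (FDR 0.137).

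The 10 genes were looked at for the p53 consensus half-site, since p53 binds DNA as a tetramer on a pair of such half-sites. The half-site equals its own reverse complement, so a scan of 1 strand covers both. In the 10 kb around the annotated gene start on GRCm39 (GENCODE M39), an exact pair with 0 to 13 bases between the half-sites was present for 2 of the 10 genes, Cdkn1a and Zmat3. The same pair was present in 3.26% of 10160 windows around tested genes. Allowing 1 mismatch in an adjacent pair, matches were present for Cdkn1a, Mdm2, Ccng1 and Zmat3, and in 3.21% of the windows. In the RefSeq promoter table (build GRCm38.p6), from 250 bases before to 50 after a gene start, 8 of the 10 genes were listed. The exact pair was in 0.0731% and the adjacent pair with 1 mismatch in 0.0791% of 32851 such windows. The latter included those of Cdkn1a and Ccng1, and the former that of Cdkn1a. A Zmat3 match with 1 mismatch at position -4156 and the exact pair at Cdkn1a are not written out. The matches below are the others in the 10 kb windows of the 10 genes. Each is written 5′ to 3′ on the strand of its gene, with the pair of half-sites in capitals.
Cdkn1a, chr17:29309902-29309921, + strand, position -34 from the gene start, 1 mismatch: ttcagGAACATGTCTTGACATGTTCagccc
Ccng1, chr11:40646289-40646308, - strand, position -160 from the gene start, 1 mismatch: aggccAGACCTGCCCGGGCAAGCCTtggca
Ccng1, chr11:40645763-40645782, - strand, position 366 from the gene start, 1 mismatch: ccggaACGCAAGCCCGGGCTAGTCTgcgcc
Mdm2, chr10:117547575-117547594, - strand, position -864 from the gene start, 1 mismatch: gaactGGGCAATTCCGGGCAAGTCCgggcc
Zmat3, chr3:32418480-32418499, - strand, position 1664 from the gene start, exact: gtgagAAACAAGCCCAGGCATGTCTtggga

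These coordinates are those of the capitals. The Cdkn1a match and the Ccng1 match before its start lie in exons of unnamed long noncoding RNA genes on the opposite strand. The Ccng1 match after its start is in an intron of Ccng1, and the Mdm2 match is in an intron of a long noncoding RNA gene. The Zmat3 match shown is in an exon of Zmat3. The exact pair at Cdkn1a has 12 bases between its half-sites and shares its second half-site with the match shown. A match describes the letters and is not a measured site, and genes with and without one were found among those that rose and those that fell. Bbc3, which rose in both tumor groups, and Sesn2, which fell in TI, had none in this window.

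Cdkn1a, which encodes the cyclin-dependent kinase inhibitor p21 that halts the cell cycle, had the largest log2 difference of the 9 tested genes in TI vs AG on the scale of FPKM + 1. By limma-voom on recovered reads that of Bbc3 was larger (2.20 against 2.04). It had 3.1, 3.78 and 3.75 FPKM in AG and 1.47, 1.46, 1.45, 1.85 and 2.70 FPKM in AGM. In TI it ranged from 8.42 to 24.5 FPKM with a median of 15, and in TIM from 3.11 to 8.83 FPKM with a median of 5.49. Every TI library was above all AG libraries, and 7 of 8 TIM libraries were below all TI libraries. TI exceeded AG by a log2 difference of 1.80 (SE 0.29; limma FDR 1.88e-05), a 4.47-fold ratio of the mean FPKM. TIM was lower than TI by -1.36 (SE 0.22; FDR 2.04e-04) and was not separated from AG by the test (0.44, interval -0.17 to 1.04; FDR 0.218). TIM was 3.02-fold higher than AGM in mean FPKM (log2 difference 1.16, FDR 3.04e-04), and all 8 TIM libraries were above all AGM libraries. AGM differed from AG by -0.72 (limma FDR 0.0898), which passed with a pseudocount of 0.1 (FDR 0.0416) and with recomputed FPKM (FDR 0.0026).

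Bbc3, Bax and Pmaip1 encode PUMA, BAX and NOXA, members of the BCL2 family that promote cell death. Bbc3 had 0.891, 0.590 and 0.812 FPKM in AG and 0.993, 0.815, 0.897, 1.13 and 1.36 FPKM in AGM. It ranged from 2.54 to 6.36 FPKM in TI (median 3.37) and from 1.44 to 4.36 FPKM in TIM (median 3.21). All 16 tumor libraries were above all 8 gland libraries. Bbc3 was higher than in AG by a log2 difference of 1.38 in TI (SE 0.20; limma FDR 3.82e-06) and of 1.15 in TIM (SE 0.20; FDR 4.20e-05), a 4.83-fold and a 3.90-fold ratio of the mean FPKM. TIM and TI did not differ beyond the spread in Bbc3 (-0.23, interval -0.53 to 0.07; FDR 0.262). TIM was higher than AGM by 0.94 (FDR 4.20e-05).

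Bax was the highest of the 7 targets in AG, with 7.26, 7.84 and 7.32 FPKM. It had 5.45, 4.10, 5.09, 5.08 and 5.89 FPKM in AGM, ranged from 7.02 to 16.6 FPKM in TI (median 8.92) and from 4.75 to 10.2 FPKM in TIM (median 7.51). In TI 3 libraries had 14.8 FPKM or more and the other 5 had 9.0 FPKM or less. TI differed from AG by a log2 difference of 0.45 (FDR 0.113), which did not pass, and TIM was lower than TI by -0.53 (SE 0.17; limma FDR 0.0300). This last call was lost without any 1 of the TI libraries 2, 3 and 7 or the TIM libraries 1, 2 and 5 (column order), with FDRs of 0.0577 to 0.0685, and when only TI and TIM set the spread (FDR 0.0871). AGM differed from AG by -0.48 (limma FDR 0.164), and passed with recomputed FPKM (FDR 0.0081). TIM differed from AGM by 0.39 (limma FDR 0.0829), which passed without the TIM library 2 or 5 (FDR 0.0447 and 0.0467). It also passed with recomputed FPKM (0.75, FDR 0.0053), where the median of all tested genes was 0.31, and by limma-voom (0.78, FDR 0.0081).

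Pmaip1 was the lowest of the 10 genes. It is given in RPM, recovered reads per 1000000 reads outside the 126 highest genes. It had 1.79, 1.44 and 1.35 RPM in AG (24 to 31 reads) and 0.247, 0.832, 0.240, 0.685 and 0.338 RPM in AGM (4 to 16 reads). The means were 5.74 ± 3.09 RPM in TI (SD, n = 8, 29 to 225 reads) and 3.7 ± 2.14 RPM in TIM (n = 8, 19 to 114 reads). Of the 8 libraries, 7 in TI and 7 in TIM were above all AG libraries. Only TIM vs AGM passed the exact two-sided permutation test of the mean, with 8 of 8 TIM libraries above all AGM libraries and a ratio of 7.91 (adjusted p 0.0078 over the 5 comparisons). The adjusted p was 0.0595 for TI vs AG, 0.0606 for TIM vs AG, 0.0595 for AGM vs AG and 0.147 for TIM vs TI in the same permutation test. All 5 AGM libraries were below all AG libraries, with an unadjusted exact permutation p of 0.0357.

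Ccng1, which encodes cyclin G1, went the other way from Cdkn1a and Bbc3. It had 5.72, 6.05 and 6.54 FPKM in AG and 2.37, 3.06, 2.48, 1.95 and 1.40 FPKM in AGM. It ranged from 2.52 to 3.64 FPKM in TI (median 3.06) and from 0.898 to 3.87 FPKM in TIM (median 1.87). All 21 libraries with a transgene were below all 3 AG libraries. The log2 difference from AG was -0.81 in TI (SE 0.21; limma FDR 0.0028), -1.21 in TIM (SE 0.21; FDR 4.81e-05) and -1.15 in AGM (SE 0.23; FDR 6.42e-04). TIM differed from TI by -0.41 (limma FDR 0.0639), which passed without the TIM library 3, 6 or 8 (FDR 0.0308, 0.0143 and 0.0332). AG differs from the other groups also in CRE and, for AGM and TIM, in run. Nudcd2, a chaperone-like gene on the opposite strand that overlaps Ccng1, had 3.20 ± 0.161 FPKM in AG, 1.70 ± 0.384 in AGM, 3.22 ± 1.12 in TI and 2.86 ± 1.54 in TIM.

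Zmat3 encodes an RNA-binding protein that acts in splicing. It had 1.23, 1.17 and 1.25 FPKM in AG and 0.699, 0.702, 0.953, 0.833 and 0.617 FPKM in AGM. It ranged from 1.29 to 4.08 FPKM in TI (median 2.74) and from 0.910 to 3.24 FPKM in TIM (median 1.88). All TI libraries were above all AG libraries, the lowest by a narrow margin (1.29 against 1.25 FPKM). Zmat3 was higher in TI than in AG by a log2 difference of 0.71 (SE 0.20; limma FDR 0.0046) and in TIM than in AGM by 0.69 (FDR 0.0011). TIM differed from AG by 0.35 (FDR 0.142) and from TI by -0.35 (FDR 0.0833). The last passed without the TI library 3 or the TIM library 6 (limma FDR 0.0237 for both). AGM differed from AG by -0.33 (limma FDR 0.253), which passed with recomputed FPKM (-0.96, FDR 0.0157). There the median of all tested genes was -0.41. It also passed by limma-voom (FDR 0.0125) and with the AGM and AG libraries alone (FDR 0.0027).

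Sesn2 encodes sestrin 2, a stress protein that restrains mTORC1. It had 1.24, 1.34 and 1.5 FPKM in AG and 1.81, 2.07, 1.53, 1.61 and 1.98 FPKM in AGM. It ranged from 0.526 to 1.20 FPKM in TI (median 0.724) and from 0.462 to 1.49 FPKM in TIM (median 1.07). All AGM libraries were above and all TI libraries below the AG libraries. AGM and AG differed by 0.24 (limma FDR 0.219), a sign that turned with recomputed FPKM (-0.065). Sesn2 was lower in TI than in AG (log2 difference -0.44, SE 0.13; limma FDR 0.0081) and lower in TIM than in AGM (-0.49, SE 0.11; FDR 7.19e-04). TIM and AG differed by -0.25 (FDR 0.133). TIM and TI differed by 0.20 (limma FDR 0.153), and this passed without the TIM library 8 (FDR 0.0372).

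Counted over the 9 tested genes, TI vs AG had 3 higher (Cdkn1a, Bbc3, Zmat3) and 2 lower (Ccng1, Sesn2), where 24.6% of all tested genes were higher and 27.7% lower. TIM vs AG had 1 higher (Bbc3, background 22.5%) and 1 lower (Ccng1, background 28.5%). AGM vs AG had 1 lower (Ccng1, background 14%) and 0 higher by limma (background 14.6%), with 0 higher at an unadjusted p under 0.05 and 0 by limma-voom. TIM vs TI had 4 lower (Trp53, Mdm4, Cdkn1a, Bax, background 12.9%) and 0 higher by limma (background 10%), with 0 higher at an unadjusted p under 0.05 and 0 by limma-voom. TIM vs AGM had 3 higher (Cdkn1a, Bbc3, Zmat3, background 31.9%) and 1 lower (Sesn2, background 33.4%). With only 9 genes, these shares are a description beside the background. The median log2 difference of the 9 was 0.33 in TI vs AG, -0.10 in TIM vs AG, -0.34 in AGM vs AG, -0.41 in TIM vs TI and 0.17 in TIM vs AGM, while that of all tested genes lay between 0.00 and 0.03.

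**Figure D2:**
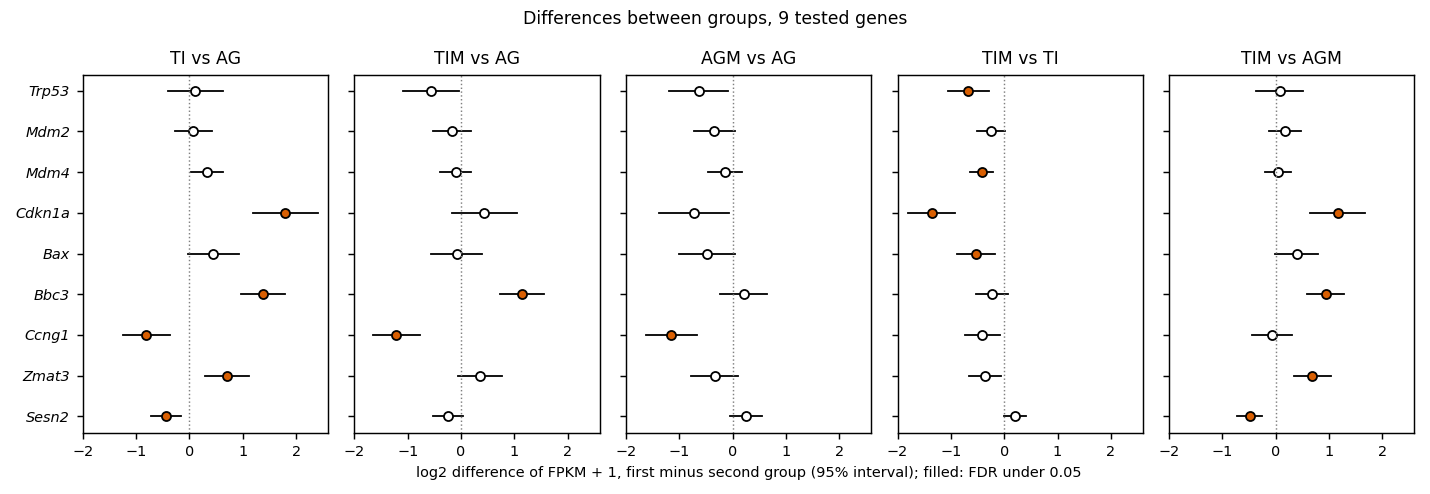
Log2 difference of FPKM + 1 with its 95% interval for the 9 tested genes in the 5 comparisons (first group minus second). Filled points have a limma FDR under 0.05. TI vs AG has filled points on both sides of 0, from Cdkn1a at 1.80 to Ccng1 at -0.81, and in TIM vs TI all 4 filled points are below 0.

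Whether tumor and gland differed by the same amount with and without MYCN was asked by the interaction (TIM - AGM) - (TI - AG). This contrast also holds the differences in run, IGF2BP1 alleles, tumor site and age given above. It holds Cre too, which differs between TI and AG but not between TIM and AGM. Of the 9 genes 0 passed by limma, where 10% of all tested genes did so (392 higher and 626 lower, against 364 and 93 by limma-voom). At an unadjusted p under 0.05 there was 1, Ccng1, and 0 passed by limma-voom. Ccng1 had the lowest FDR, with an interaction of 0.74 (95% interval 0.17 to 1.31; FDR 0.0965), and passed without the TIM library 5 in column order (0.84, FDR 0.0244). That library had 0.742 FPKM over 6 genes of cycling cells, the lowest of the TIM libraries. For Cdkn1a the interaction was -0.64 (interval -1.43 to 0.15; FDR 0.333).

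The comparisons with AGM depended on how libraries were scaled. The deposited FPKM rest on library sizes scaled by the authors. When FPKM were recomputed with the recovered reads outside the 126 highest genes, the median of all tested genes moved to -0.41 in AGM vs AG, -0.15 in TIM vs AG, -0.12 in TIM vs TI and 0.31 in TIM vs AGM. The number of the 9 genes called in AGM vs AG then rose from 1 to 6, all lower (Trp53, Mdm2, Cdkn1a, Bax, Ccng1 and Zmat3), and limma-voom on the reads also called 6. Of all tested genes 35.7% were then lower and 9.58% higher with recomputed FPKM, and 35.7% and 5.98% by limma-voom. Relative to that median the differences were -0.79 for Trp53, -0.97 for Cdkn1a, -0.58 for Bax, -0.50 for Mdm2, -0.54 for Zmat3 and -1.43 for Ccng1. Bbc3 and Sesn2 changed sign in AGM vs AG under the recomputed FPKM (-0.030 and -0.065), while relative to the median they remained positive (0.38 and 0.35). Fitted on AG and AGM libraries alone, 7 genes were called, these 6 as lower and Sesn2 as higher, where 32.9% of all tested genes were lower and 29.2% higher. In TIM vs AG, Trp53 (-0.83, FDR 0.0336) and Sesn2 (-0.56, FDR 0.0453) were called as lower under the recomputed FPKM in addition to Ccng1 and Bbc3. Over all genes the calls there went from 2293 higher and 2897 lower to 2062 and 3265. In TIM vs TI, Ccng1 (-0.69, FDR 0.0444) and Zmat3 (-0.61, FDR 0.0369) were called as lower in addition, while over all genes the calls went from 1017 higher and 1315 lower to 816 and 1879.

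**Figure D3:**
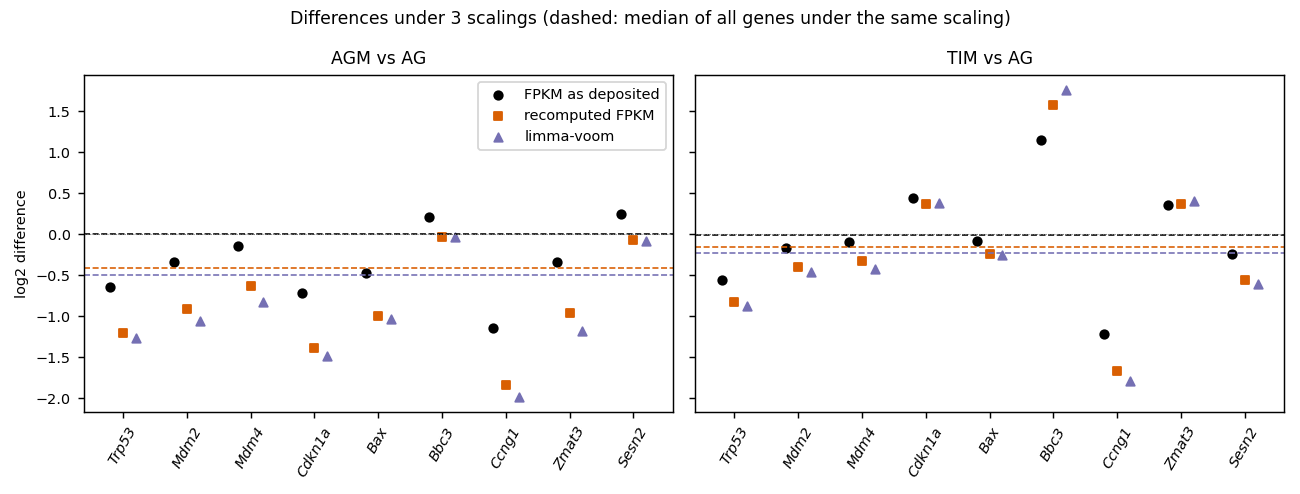
Log2 differences of the 9 tested genes in TIM vs AG (right) and AGM vs AG (left) under 3 scalings (FPKM as deposited, recomputed FPKM, limma-voom on recovered reads). Dashed lines are the median of all tested genes under the same scaling, at 0.00, -0.41 and -0.50 in AGM vs AG. Cdkn1a and Ccng1 lie below the line of their scaling in all 3 in AGM vs AG, and Bbc3 and Sesn2 lie above it.

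Markers of other cells moved with these groups. The summed FPKM of 6 genes of cycling cells spanned 1.27 to 1.90 over AG, 0.402 to 0.831 over AGM, 6.54 to 49.8 over TI and 0.742 to 33.4 over TIM, and all 6 genes were higher in TI than in AG. All 6 adrenal cortex genes were lower in TI and in TIM than in AG and higher in AGM than in AG. Of the 7 sympatho-adrenal genes, 4 were higher and 0 lower than in AG in each of TI, TIM and AGM. Between TIM and TI, 1 of these 7 was lower in TIM and 0 higher. All 4 adipocyte genes were lower in both tumor groups, and 3 of 5 endothelial genes in TI and 5 of 5 in TIM. No marker of these lists was at 0 in all libraries of a group. Their part in the differences of the p53 genes was not tested. Between TIM and TI, 0 of the 6 cortex genes, 0 of the 4 adipocyte, 0 of the 5 fibroblast and 0 of the 5 endothelial genes differed by limma, and 1 of 6 cycling genes was lower.

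Across the 8 libraries of each tumor group, Trp53 was compared with each of the 9 other genes and Mdm2 with Cdkn1a, 20 relations in all. In TI Trp53 rose with Mdm4 (Pearson r 0.907, exact permutation p 0.0022, adjusted 0.0218; Spearman rho 0.952, adjusted p 0.0228). It fell with Sesn2 (r -0.903, exact permutation p 0.0012, adjusted 0.0218; rho -0.833, adjusted p 0.145). Without the 2 libraries farthest from the median Trp53, r was 0.687 for Mdm4 (exact permutation p 0.124) and -0.720 for Sesn2 (exact permutation p 0.0681), so neither passed over the 6 that remained. The TI library with the lowest Trp53 (3.21 FPKM) is the one with the highest fibroblast markers. In TIM no relation had an adjusted p under the threshold by the exact permutation test. The r there was 0.618 for Mdm4 (adjusted p 0.324), 0.749 for Bbc3 (adjusted p 0.143) and 0.755 for Pmaip1 (adjusted p 0.194). Without the 2 libraries farthest from the median Trp53, r in TIM was 0.896 for Mdm4 and 0.866 for Zmat3 (exact permutation p 0.0181 and 0.0375, unadjusted, n = 6). Trp53 and Cdkn1a had an r of -0.635 in TI (exact permutation p 0.0881, adjusted 0.324; -0.785 without the same 2 libraries, unadjusted p 0.025) and of -0.067 in TIM (adjusted p 0.919).

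**Figure D4:**
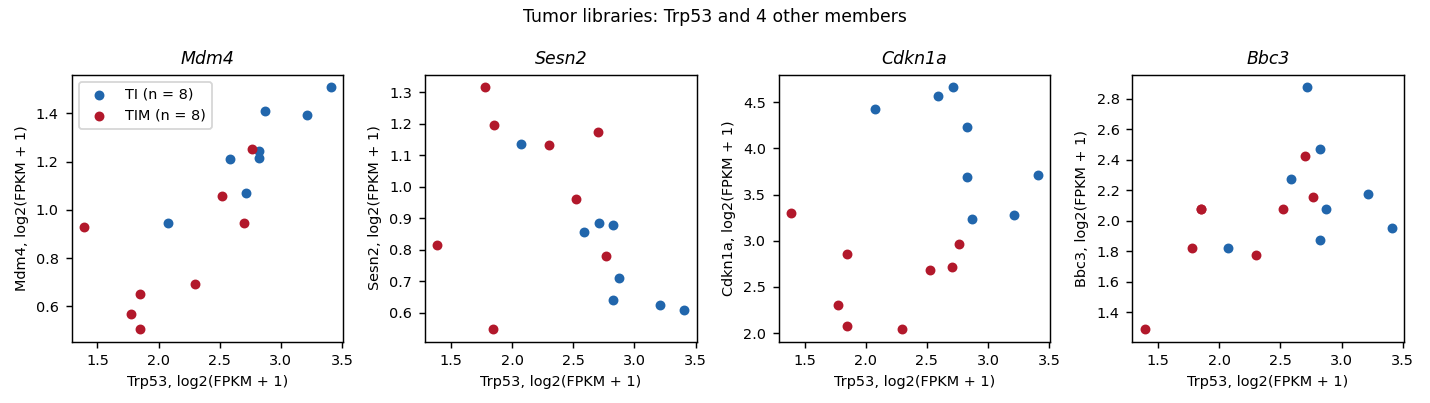
Log2(FPKM + 1) of Mdm4, Sesn2, Cdkn1a and Bbc3 against that of Trp53, with 1 point per tumor library (TI and TIM, n = 8 each). Mdm4 is high where Trp53 is high in TI (r 0.907), Sesn2 is low there (r -0.903), and Cdkn1a shows no rise with Trp53 in either group (r -0.635 and -0.067).

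The genes with the most similar profile over the 24 libraries, outside the 10, were Llgl1, Homer3 and Tubgcp6 for Trp53 (Pearson r 0.901, 0.892 and 0.890). They were Tbce, Nfx1 and Fam76b for Mdm2 (0.854, 0.847 and 0.843) and Ogfrl1, Sfswap and Arhgef28 for Cdkn1a (0.938, 0.917 and 0.915). These values describe the profile over groups that differ in tissue, depth and run.

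Other known p53 targets had members called in both directions. Of 42 listed genes 33 were tested, and 9 of them were higher and 11 lower in TI vs AG, 5 higher and 14 lower in TIM vs AG, 9 higher and 4 lower in AGM vs AG, 3 higher and 9 lower in TIM vs TI, and 9 higher and 13 lower in TIM vs AGM. In TI vs AG these are shares near those of all tested genes (24.6% higher and 27.7% lower), and the others stand against 22.5% and 28.5% in TIM vs AG, 14.6% and 14% in AGM vs AG, 10% and 12.9% in TIM vs TI and 31.9% and 33.4% in TIM vs AGM. The split in AGM vs AG turned with the scaling, to 3 higher and 11 lower with recomputed FPKM and 1 and 11 by limma-voom. Over all tested genes these were 974 and 3630, and 608 and 3627. The split in TIM vs AGM went to 11 and 10 with recomputed FPKM, and over all tested genes to 4283 and 2656. The median log2 difference of the 33 was -0.17, -0.12, -0.12, -0.16 and -0.27 in this order. The largest falls were those of Fdxr, Ephx1 and Dcxr. Fdxr, ferredoxin reductase, passes electrons to the steroid-making enzymes of cortex mitochondria, and it had 108 ± 7.77 FPKM in AG, 88.3 ± 8.17 in AGM, 2.70 ± 0.632 in TI and 1.41 ± 0.377 in TIM. Its log2 difference from AG was -4.90 in TI (limma FDR 7.40e-18) and -5.51 in TIM (FDR 6.14e-19), and in both tumor groups it was low as the cortex markers were, while in AGM those markers were higher than in AG and Fdxr was not. Ephx1, an epoxide hydrolase, fell from 37.6 ± 4.64 FPKM in AG to 1.75 ± 1.02 in TI and 3.73 ± 3.61 in TIM (log2 differences -3.88 and -3.31, limma FDR 7.27e-08 and 8.19e-07). Dcxr, a carbonyl reductase, fell from 5.07 ± 0.496 to 0.659 ± 0.236 and 1.09 ± 0.457 FPKM (-1.88 and -1.57, limma FDR 1.12e-07 and 1.75e-06).

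The largest rises in TI vs AG were those of Psrc1 (log2 difference 1.64, limma FDR 0.0011), Plk2 (1.63, FDR 1.20e-06) and Gtse1 (1.39, FDR 0.0012). Psrc1 and Gtse1 encode spindle and microtubule proteins of dividing cells and rose in TI, where the cycling markers were higher too. In TIM vs AG 5 of the 6 cycling markers were higher, while neither Psrc1 nor Gtse1 was called. A link between them was not tested. Plk2, a polo-like kinase, rose from 0.936 ± 0.0657 FPKM in AG to 5.28 ± 2.13 in TI and 3.43 ± 0.823 in TIM. In TIM vs AG, Plk2 and Ddit4 (an mTORC1 inhibitor) were higher, with log2 differences of 1.18 and 1.13 (limma FDR 8.62e-05 and 0.0058, the latter 0.0549 without AG library 1). Ddit4 was also higher in TIM than in TI (12.9 ± 6.02 against 4.89 ± 2.30 FPKM, log2 difference 1.24, limma FDR 0.0012), as was Tigar, a regulator of glycolysis (1.69 ± 0.543 against 0.558 ± 0.245 FPKM, 0.78, FDR 6.66e-05). Fdxr and Psrc1 were lower in TIM than in TI (-0.62 and -0.79, limma FDR 4.77e-04 and 0.0490), the call of Psrc1 being lost without any 1 of 10 of the 16 libraries (FDR up to 0.107). In AGM vs AG, Btg2 and Gls2 were higher (1.36 and 1.26, limma FDR 0.0368 and 0.0363) and Sulf2 and Aen lower (-0.94 and -0.65, FDR 0.0129 and 0.0419). The calls of Btg2 and Gls2 were also lost by limma-voom (FDR 0.118 and 0.116) and without 1 of several libraries, Gls2 falling to 0.83 without AGM library 5 (FDR 0.0963). Aen lost its call without any 1 of the 8 libraries (FDR 0.0529 to 0.121) and Sulf2 without AG library 3 (FDR 0.0654). Gls2, a glutaminase, was 2.77 ± 3.46 FPKM in AGM, so its mean was smaller than its spread.

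**Figure D5:**
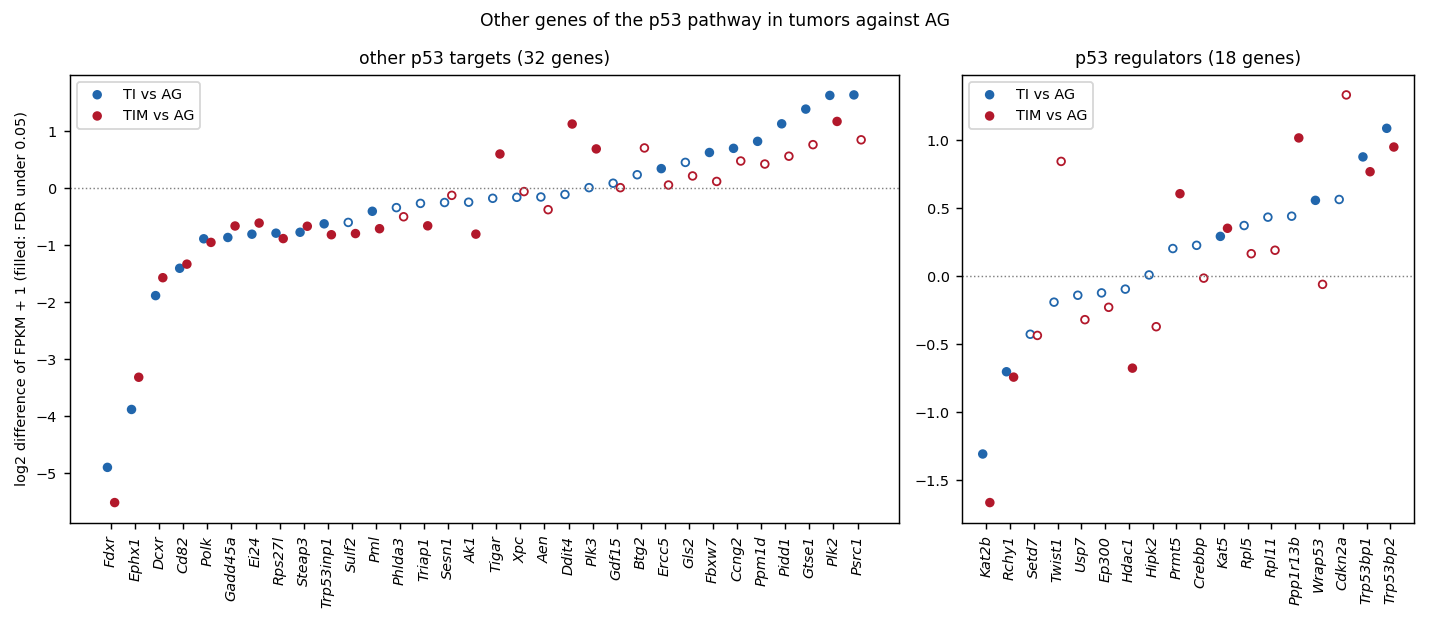
Log2 difference of FPKM + 1 from AG in TI (blue) and TIM (red) for 32 of the 33 tested other p53 targets and the 18 tested p53 regulators, ordered by TI vs AG. Filled points have a limma FDR under 0.05. The targets run from Fdxr at -4.90 to Psrc1 at 1.64 in TI, and the regulators from Kat2b at -1.31 to Trp53bp2 at 1.09. Both comparisons share the AG libraries.

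Regulators of p53 were the other list. Of 26 listed genes 18 were tested, with 4 higher and 2 lower in TI vs AG, 5 and 3 in TIM vs AG, 1 and 3 in AGM vs AG, 2 and 3 in TIM vs TI, and 5 and 3 in TIM vs AGM. For these counts the shares of all tested genes given above for the targets are the background too. AGM vs AG had 1 higher and 11 lower both with recomputed FPKM and by limma-voom. TIM vs AGM had 9 and 3 and TIM vs TI 1 and 4 under both. TIM vs AG had 4 and 4 with recomputed FPKM and 3 and 4 by limma-voom. Over all tested genes recomputed FPKM gave 974 higher and 3630 lower in AGM vs AG and 4283 and 2656 in TIM vs AGM. It gave 816 and 1879 in TIM vs TI and 2062 and 3265 in TIM vs AG. In the same order limma-voom gave 608 and 3627, 3915 and 2553, 529 and 1806, and 1525 and 3311. The kinases Atm, Atr, Chek1, Chek2 and Prkdc, which signal DNA damage to p53, did not pass the filter. Kat2b, an acetyltransferase of histones and p53, fell from 3.43 ± 0.133 FPKM in AG to 1.12 ± 0.284 in AGM, 0.791 ± 0.0852 in TI and 0.399 ± 0.0933 in TIM. Its log2 difference from AG was -1.07, -1.31 and -1.67 (limma FDR 4.15e-09, 1.25e-11 and 1.54e-13). Rchy1, a ubiquitin ligase for p53, was lower than in AG in TI (-0.70) and TIM (-0.74), with limma FDRs of 4.12e-05 and 2.18e-05. Trp53bp1 and Trp53bp2, which encode p53-binding proteins of DNA repair and cell death, were higher in TI (0.88 and 1.09, limma FDR 8.90e-05 and 8.11e-04) and in TIM (0.77 and 0.95, FDR 3.84e-04 and 0.0028) than in AG. Ppp1r13b, a relative of Trp53bp2, was higher in TIM than in AG (1.02, limma FDR 0.0257) and Hdac1, a histone deacetylase, lower (-0.68, FDR 0.0257). Both of these calls were lost without any 1 of the AG libraries (FDR 0.0604 to 0.0787).

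In AGM vs AG, Usp7, the protease that removes ubiquitin from Mdm2 and p53, was lower (-0.61, limma FDR 0.0080), and Twist1, a transcription factor that opposes p53, was higher (4.73 ± 0.588 against 0.224 ± 0.0521 FPKM, 2.22, FDR 3.41e-04). Twist1 was also higher in TIM (1.71 ± 1.86 FPKM) than in TI (0.0749 ± 0.104 FPKM), by 1.04 (limma FDR 0.0125). When only the TI and TIM libraries set the spread, this call was lost (FDR 0.0531). Prmt5, a methyltransferase that acts on p53, was higher in TIM than in TI (5.77 ± 1.19 against 4.12 ± 0.942 FPKM, 0.40, limma FDR 0.0134), and Hdac1 was lower (-0.58, FDR 0.0255). The call of Prmt5 was lost with recomputed FPKM (FDR 0.0957), by limma-voom (FDR 0.106) and with the TI and TIM libraries alone (FDR 0.0508). That of Hdac1 was lost without the TI library 2 or 3 or the TIM library 2 or 5 (FDR 0.0538 to 0.0580). It was also lost with the TI and TIM libraries alone (FDR 0.0835). Cdkn2a, whose Arf product inhibits Mdm2, is named here after its values were seen. It had 6.25 ± 7.69 FPKM in TIM and 0.629 ± 0.0526 in AG, a log2 difference of 1.33 that did not pass (limma FDR 0.116).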

How the data were processed

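Per the submitters' processing notes and the study's methods, the authors trimmed reads with cutadapt 2.8, aligned them with HISAT2 2.1.0 to mm39, handled alignments with SAMtools 1.10, counted with featureCounts 2.0.0, corrected a batch effect with ComBat-seq and normalized with TMM in edgeR 3.40. The annotation and strand setting are not given in the sources used here. The deposited values were FPKM of 21833 protein-coding genes, beside gene length. The authors' deposited log2 fold changes, p-values and FDR of each group against AG were not used.

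Columns were given a group by name. FPKM times length gave whole multiples of 1 step for 100.0% of entries (tolerance 0.01 read), which returned reads that are batch-corrected and not the sequencing depth. The 10171 genes that reached 1 FPKM in 3 or more libraries were fitted on the log2(FPKM + 1) scale with limma 3.58.1 (R 4.3.3, trend), over all 24 libraries and without covariates. This scale understates changes of low genes. P-values were adjusted by Benjamini-Hochberg over these genes, with an FDR below 0.05 as the threshold. Pmaip1, Trp63 and Trp73 were compared as RPM by exact permutation tests. Nothing in the labels ties samples to separate litters, so p-values measure the spread between these libraries, and read numbers cover counting error only. In the study tumors outnumbered mice among those with both transgenes, and the columns name no mouse. Some TIM libraries may therefore share a mouse, while the tests treat them as separate. Positions and p53 half-sites were read from GRCm39 and GENCODE M39, the assembly that the authors' build names.

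The members and lists were chosen with earlier results of these data known. All 10 members are named. From the other 2 lists, the 3 largest changes past the threshold in each direction were named for TI vs AG and TIM vs AG, and the 2 largest for AGM vs AG and TIM vs TI. 1 gene this rule would name is counted but not reported here. Alternatives were a pseudocount of 0.1, no filter, at least 1 FPKM in every library, the libraries of the 2 groups alone, recomputed FPKM, limma-voom on recovered reads and leaving out each library. The code was tested on simulated data.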

Additional observations from a re-analysis of the deposited data

Results flagged for a closer look

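The interaction (TIM - AGM) - (TI - AG) passed by limma in 5 genes of the other lists, chosen after their values were seen, out of 51 tested there, where 10% of all tested genes passed. It was -1.13 for Plk2 (FDR 0.0098), -0.92 for Dcxr (FDR 0.0355), -0.89 for Gdf15 (FDR 0.0048), -0.40 for Steap3 (FDR 0.0088) and 0.72 for Kat2b (FDR 7.82e-05), on the log2 scale. Gdf15, a secreted stress factor, had 1.07 ± 0.423 FPKM in AGM and 0.154 ± 0.0278 in AG. Steap3, a metalloreductase, had 1.59 ± 0.109 FPKM in AGM and 0.831 ± 0.117 in AG. Under limma-voom on recovered reads none of the 5 passed: the FDR was 0.0552 for Kat2b, 0.0754 for Plk2, 0.120 for Gdf15 and 0.637 for Dcxr, and the sign of Steap3 turned (0.39, FDR 0.668). With recomputed FPKM, Dcxr (FDR 0.460) and Steap3 (FDR 0.870) did not pass, and Dcxr also lost its call without 1 of 6 libraries (FDR 0.0543 to 0.115). In the 30 groups of 5 or 8 libraries checked for the 10 genes, 0 libraries lay beyond the limit for a single far value.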

How the results depend on the processing

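No paired analysis was possible because the columns of the table carry no replicate number that matches the sample titles. Of the 9 tested genes, the number called in TI vs AG was 5, and it was 1 of 3 genes left when 1 FPKM in every library was required, where fewer genes were tested. Under that filter it was 0 in TIM vs AG (from 2), 0 in AGM vs AG (from 1) and 1 in TIM vs AGM (from 4). In AGM vs AG it was 2 with a pseudocount of 0.1, 7 with the 2 groups alone, and 6 with recomputed FPKM and with limma-voom. In TIM vs AG recomputed FPKM and limma-voom each gave 4, and in TIM vs TI the 2 groups alone gave 2 (from 4). Leaving out 1 library gave 5 to 6 in TI vs AG, 2 to 3 in TIM vs AG, 3 to 6 in TIM vs TI, 4 to 5 in TIM vs AGM, 1 in AGM vs AG, and 0 to 1 in the interaction, with 1 without TIM library 5. The cause was not tested where the number of genes tested was the same. Wherever leaving out 1 library made a difference of the 9 genes pass, that library had narrowed the difference, so leaving it out widened it. Over all 10171 tested genes, the 2 groups alone took the calls in AGM vs AG from 2908 to 6312. Such fits took TIM vs TI from 2332 to 1309 and TIM vs AG from 5190 to 4522. In AGM vs AG recomputed FPKM gave 4604 and limma-voom 4235, and in TIM vs AG 5327 and 4836. With 1 FPKM required in every library, 3464 genes were tested. Of these 1627 were called in TI vs AG, 1534 in TIM vs AG, 569 in AGM vs AG, 737 in TIM vs TI and 1944 in TIM vs AGM.

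Of the 33 other targets, 7 were left under the filter of 1 FPKM in every library, with 2 called in TI vs AG (from 20), 5 in TIM vs AG (from 19), 2 in AGM vs AG (from 13), 3 in TIM vs TI (from 12), 3 in TIM vs AGM (from 22) and 0 in the interaction (from 4). The 2 groups alone gave 21 in AGM vs AG and 6 in TIM vs TI, beside the calls over all tested genes given above. By limma-voom 1 was called in the interaction, against 364 higher and 93 lower over all tested genes. Leaving out 1 library gave 5 to 13 in AGM vs AG (5, 7 and 8 without AG libraries 3, 1 and 2, and 8 without AGM library 4), 7 to 13 in TIM vs TI (7 without TIM library 1) and 3 to 7 in the interaction (7 without TIM library 5). Of the 18 regulators, 9 were left under that filter, with 3 called in TI vs AG (from 6), 5 in TIM vs AG (from 8), 1 in AGM vs AG (from 4), 3 in TIM vs TI (from 5) and 0 in the interaction (from 1). The 2 groups alone gave 5 in TIM vs AG, 11 in AGM vs AG and 2 in TIM vs TI, beside the calls over all tested genes given above. Recomputed FPKM and limma-voom each gave 12 in AGM vs AG. In the interaction they gave 2 and 0, a pseudocount of 0.1 gave 0, and no filter gave 2. Leaving out 1 library gave 5 to 11 in TIM vs AG (5 without AG library 2 or 3).

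The sign turned for Bbc3 in AGM vs AG (-0.030 with recomputed FPKM and -0.034 with limma-voom), Sesn2 in AGM vs AG (-0.065 and -0.086), Ccng1 in TIM vs AGM (0.18 and 0.19) and Steap3 in the interaction (0.39 with limma-voom). In TIM vs AGM, where all 3 were near 0, leaving out 1 library turned Trp53 (range -0.013 to 0.18), Mdm4 (-0.018 to 0.11) and Ccng1 (-0.172 to 0.031). Without the 2 libraries farthest from the median, r turned for Trp53 with Bbc3 (-0.32), Pmaip1 (0.19) and Ccng1 (-0.62) in TI, and with Mdm2 (0.11) and Cdkn1a (0.31) in TIM. The adjusted permutation p of Pmaip1 was 0.0417 to 0.147 in TI vs AG (0.0417 without TI library 6) and 0.0404 to 0.147 in TIM vs AG (0.0404 without TIM library 8). The p53 half-site search allowing 1 mismatch, and Pmaip1 as FPKM, were added after seeing the data. Genes with under 100 reads, such as Pmaip1 in glands and in most tumor libraries, are limited by depth.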
